A study of Mus musculus with 10 samples.

Results

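Splenic T cells and B cells of the mouse that had received the same CRISPR interference guide, sgRNA-P1, were compared with each other, and the comparison was set gene by gene beside the one between mock T cells and mock B cells. It rests on 8 of the 10 deposited columns, those labelled mock or sgRNA-P1 in either cell type, and leaves B cells with sgRNA-P2 as an outside reference. In CRISPR interference a guide RNA brings a catalytically dead Cas9 to a promoter and lowers transcription there. All 4 groups were primary cells of spleen, and the guided groups had the P1 promoter of Pou2f1 as their target. The 2 columns of a group, labelled as replicates, match 1 count divided in a fixed proportion and agree more closely than sampling noise would allow. They count as 1 sample, so the comparison holds 4 of the series' 5 libraries and 1 library per group. The sources used here do not state the animals, their strain or age, how the cells were selected, the time with the guide or what the mock cells received.

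Pou2f1 encodes Oct-1, a transcription factor made in most cell types that binds the octamer, a short DNA motif found in immunoglobulin promoters and in promoters of histone H2B and small nuclear RNA genes. Its relative Oct-2, from Pou2f2, and the coactivator OBF-1, from Pou2af1, are enriched in B cells and act at the same motif. T cells and B cells arise from a common lymphoid progenitor and keep distinct receptors, signalling proteins and transcription factors, while sharing the machinery of translation and respiration.

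Each start of Pou2f1 in the RefSeq promoter table is shown because the guide's target is a choice between such starts. The 3 stretches run on the minus strand of GRCm38.p6, from chr1:166002615-166002694, chr1:165953052-165953131 and chr1:165934929-165935008, and the capital marks the first transcribed base.
Pou2f1 start 1: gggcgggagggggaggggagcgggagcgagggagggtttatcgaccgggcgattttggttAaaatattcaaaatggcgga
Pou2f1 start 2: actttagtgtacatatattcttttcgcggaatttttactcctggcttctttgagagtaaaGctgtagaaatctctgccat
Pou2f1 start 3: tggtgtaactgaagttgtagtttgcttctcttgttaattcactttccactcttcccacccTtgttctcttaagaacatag
The first start lies in a GC-rich window with 32 CpG dinucleotides in 300 bases and a GC content of 69.7%. Each of the other windows held 2 CpG dinucleotides, with GC contents of 28.7% and 38%. The labels do not tie the name P1 to any one of these starts. The octamer ATGCAAAT, searched on both strands, was in none of the 3 windows.

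Pou2f1 itself was lower with the guide in both cell types, and its small excess in B cells was larger with the guide. Levels are given as CPM, the reads of a gene brought to a common library size after scaling by the trimmed mean of M-values (TMM). Pou2f1 stood at 138 CPM in mock T cells, 66.1 in guided T cells, 157 in mock B cells and 91.1 in guided B cells. Both guided libraries lay below both mock libraries, and B cells were the higher cell type with and without the guide. The guide left 47.9% of the mock level in T cells and 58.1% in B cells. The log2 ratio of T over B was -0.18 in mock cells and -0.46 with the guide, a change of -0.28 with a 95% counting interval of -0.40 to -0.16. Such intervals cover counting error in these libraries only, since a single library per group has no replicate check. Exons of Pou2f1 shared 3007 bases, 18.1% of its exon length, with the T cell gene Cd247, and the strand setting of the counting is not given, so its level in T cells is uncertain.

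The other octamer proteins kept their separation. Pou2f2 measured 59.0 CPM in mock and 59.0 CPM in guided T cells, against 338 and 361 CPM in B cells. Pou2af1 measured 20.9 and 23.8 CPM in mock and guided T cells and 621 and 636 CPM in mock and guided B cells. Both B cell libraries lay far above both T cell libraries for either gene. The T over B log2 ratio changed by -0.09 (-0.21 to 0.02) for Pou2f2 and by 0.16 (-0.01 to 0.33) for Pou2af1.

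With the guide, 1899 genes passed a size rule of 1.5-fold in favour of T cells and 1846 in favour of B cells, among 10218 genes with a mean of 5 CPM over the 4 libraries. These are 18.6% and 18.1% of the genes, or 36.7% together. The same rule gave 1769 and 1711 genes in the mock pair. Of the genes higher in guided T cells, 84.9% were also higher in mock T cells, and of those higher in guided B cells, 85.8% were also higher in mock B cells. A model over all 5 libraries, with cell type and guide as terms (edgeR's quasi-likelihood test, Benjamini-Hochberg FDR under 0.05), called a cell type difference for 71.4% of the genes. It used the mock and guided pairs as repeats of the cell type difference.

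Genes that name the 2 lineages stood apart with the guide as they did without it. All 21 members of a T cell identity list were higher in guided T cells, and all 21 members of a B cell identity list were higher in guided B cells. Tcf7, a transcription factor of T cells, measured 1734 and 1632 CPM in mock and guided T cells and 1.42 and 1.16 CPM in B cells. Lck, the kinase that starts signalling from the T cell receptor, measured 803 and 773 CPM in mock and guided T cells and 46.1 and 45.2 CPM in B cells, a change of -0.02 (-0.16 to 0.11). Cd4, the coreceptor of helper T cells, measured 657 and 655 CPM in T cells and under 1 CPM in each B cell library. Ighm, the heavy chain of immunoglobulin M, measured 5605 and 5773 CPM in mock and guided B cells and 341 and 323 CPM in T cells, a change of -0.12 (-0.17 to -0.08).

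The widest separations with the guide were set by genes with no or few reads in the other cell type. Cd3e, a chain of the T cell receptor complex, had 297 CPM in guided T cells and 0 reads in guided B cells, at least 4774-fold higher when B cells are given a floor of 3 reads. Bcl11a, a transcription factor of B cells, had 375 CPM in guided B cells and 0 reads in guided T cells, at least 4997-fold higher by the same floor. Cd226, an adhesion receptor, was at least 2122-fold higher in guided T cells, and Tdrp at least 2050-fold. Dennd5b was at least 3487-fold higher in guided B cells, Ly86 at least 1720-fold and Cd40, the receptor for T cell help, at least 1624-fold. Bcl11b and Cd3g had 1 read each in guided B cells and Als2cl, Trbc2 and Thy1 had 3, while Fcrla and H2-Eb2 had 1 read and Rasgrp3 had 2 in guided T cells. Ms4a1, which encodes CD20, had 1780 CPM in guided B cells and 0.28 CPM in guided T cells.

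Change was counted only among the 9047 genes that reached a mean of 5 CPM in the T libraries and in the B libraries. The change is the guided log2 ratio of T over B less the mock one, so a positive value is a shift toward T cells. Its median was -0.01, with quartiles of -0.12 and 0.10, and 92.2% of the genes changed by less than 0.32 on the log2 scale. By 1.5-fold or more, 46 genes (0.508%) shifted toward T cells and 55 (0.608%) toward B cells, 1.12% in all. That split depends on the scaling, with 51 and 51 genes under size factors of the median ratio kind and 67 and 41 under total reads. Across genes, which are not independent replicates, the mock and guided ratios correlated with Pearson's r = 0.976.

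**Figure D1:**
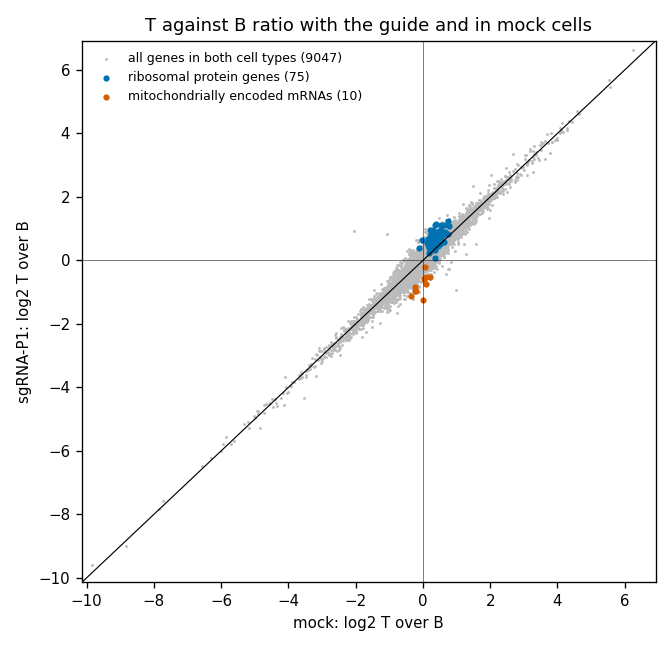
Log2 ratio of T over B with sgRNA-P1 (vertical) against the same ratio in mock cells (horizontal), 1 point per gene measured in both cell types, with the line of equal ratios. Most of the 9047 genes lie along the line, the 75 ribosomal protein genes lie mostly above it and the 10 mitochondrially encoded mRNAs lie below it.

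A difference was said to widen where the change had the direction of the mean of both ratios, and to narrow where it went the other way, among 2447 genes whose mean ratio was 1.5-fold or more. By 1.5-fold or more, 32 differences widened (1.31%) and 5 narrowed (0.204%). Of the 32, 13 favoured T cells and 19 favoured B cells, and 12 were predicted genes or pseudogenes. All 5 that narrowed were higher in T cells. A further 64 genes shifted by 1.5-fold without standing 1.5-fold apart on average, 33 of them toward T cells. If the direction is read from the mock ratio alone, 12 widened and 15 narrowed. Counting error pulls differences together under that choice, and the choice also requires a 1.5-fold difference in mock cells. So 12 of the 32 were already 1.5-fold apart in mock cells. The others include mt-Nd6, at a mock log2 ratio of 0.002, and Rps29, at 0.38.

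More genes passed the size rule between mock and guided B cells than between mock and guided T cells. Among the 9047 genes, 41 did so in B cells and 9 in T cells, and past 0.32 on the log2 scale there were 443 and 71. The spread of the guide effect across genes was 0.161 (SD, log2) in B cells and 0.0993 in T cells. Of the 32 widened differences, 23 had the larger effect in B cells, as had 54 of the 64 genes near parity. The matching share of all 9047 genes was not counted. Since the spread over all of them was larger in B cells, these counts cannot be read as particular to the genes picked. The guide effect in B cells ran with base composition across genes (a Spearman correlation of -0.51 with GC content) more than in T cells (-0.24), and the change of the T over B ratio had one of 0.33 with GC content and -0.28 with exon length. The part of base composition in single results was not tested beyond the values given with a fitted trend on both removed.

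**Figure D2:**
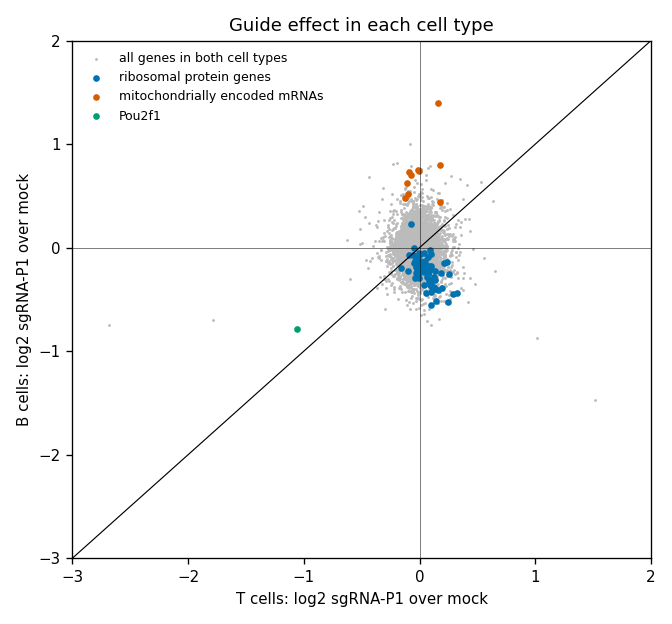
Log2 ratio of sgRNA-P1 over mock in B cells (vertical) against T cells (horizontal), 1 point per gene measured in both cell types, with the line of equal effects. Pou2f1 is at -1.06 in T cells and -0.78 in B cells, ribosomal protein genes lie mostly below 0 in B cells and mitochondrially encoded mRNAs lie above 0 there.

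Cytosolic ribosomal protein genes, which encode the protein part of the ribosome, shifted toward T cells as a group. Their median log2 ratio was 0.34 in the mock pair, over the 75 of 76 genes measured, and stood at 0.64 with the guide. The change was above 0 for 72 of the 75 genes, with a median of 0.26, against 46.7% of all genes above 0 and a median of -0.01. At 1.5-fold or more, 8 of the genes were higher in mock T cells and 44 in guided T cells. The ratio of 5 changed by 1.5-fold or more toward T cells, beside 0.508% of all genes. Over all 9047 genes 13.6% were higher in mock and 15.0% in guided T cells by that rule. The 44 became 30 with sgRNA-P2 in B cells, and 30 with the trend on GC content and length removed. The median guide effect was 0.05 in T cells and -0.22 in B cells, where 74 of the 75 genes were below the mock level.

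Rps29, a small subunit protein, stood at 592 CPM in mock T cells, 742 in guided T cells, 454 in mock B cells and 335 in guided B cells. The guided T library was the highest of the 4 and the guided B library the lowest, and the log2 ratio went from 0.38 to 1.15, a change of 0.77 (0.71 to 0.82). Rpl39, of the large subunit, stood at 409, 499, 350 and 257 CPM in the same order, a change of 0.73 (0.67 to 0.80). Rps21 stood at 310 and 367 CPM in mock and guided T cells and 244 and 169 CPM in mock and guided B cells, a change of 0.77 (0.70 to 0.85). Rps19, mutated in Diamond-Blackfan anaemia, went from 739 to 517 CPM in B cells beside 915 and 1010 CPM in T cells, a change of 0.66 (0.62 to 0.70). In each of these both T libraries lay above both B libraries. These genes were named because they widened, which requires a mean ratio of 1.5-fold, so that order follows in part from the choice. Rpl37a was level between the mock cell types, with 504 CPM in T and 510 CPM in B cells, and apart with the guide at 540 and 346 CPM, a change of 0.66 (0.60 to 0.71).

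The spread within the group was wide. Rpl35 went the other way by -0.31, Rps6 by -0.04 and Rpl7a by -0.02, while Rpl19, Rpl4 and Rpl28 changed by 0.01 to 0.06. Within the group the change had a Spearman correlation of -0.01 with exon length and 0.02 with GC content over the 75 genes, given as a description. With the trend on GC content and length over all genes removed, the median change of the group was 0.20. With B cells given sgRNA-P2 in place of sgRNA-P1, which shares the mock libraries and guided T library, it was 0.16, with 72 genes above 0. Many ribosomal protein genes have processed pseudogenes, and how reads that fit several copies were counted is not given.

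**Figure D3:**
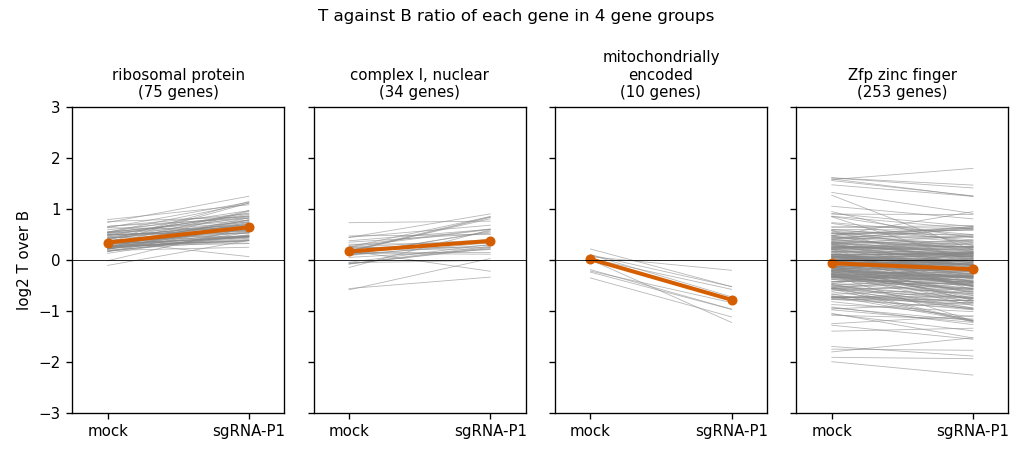
Log2 ratio of T over B in mock cells and with sgRNA-P1, 1 grey line per gene measured in both cell types and the median in orange, for ribosomal protein genes (75), nuclear complex I genes (34), mitochondrially encoded mRNAs (10) and Zfp genes (253). The median goes from 0.34 to 0.64 for ribosomal protein genes and from 0.01 to -0.78 for mitochondrially encoded mRNAs.

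The respiratory chain is built from both genomes, and its 2 sets of mRNAs moved in opposite directions. All 10 mitochondrially encoded mRNAs measured shifted toward B cells, 9 of them by 1.5-fold or more. Of 21 nuclear oxidative phosphorylation genes, 20 shifted toward T cells, 2 of them by 1.5-fold or more. Over all genes 53.3% shifted toward B cells and 46.7% toward T cells, and 0.608% and 0.508% did so by 1.5-fold or more. The median changes of the mitochondrially encoded and nuclear sets were -0.74 and 0.22. In the mock cells both sets were close to parity, with median log2 ratios of 0.01 and 0.17.

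mt-Nd6, a complex I subunit and the one mRNA of the light strand, stood at 213 CPM in mock T cells, 239 in guided T cells, 213 in mock B cells and 560 in guided B cells. Of the 4 only the guided B library was far from the others, and the change was -1.23 (-1.31 to -1.16). It shares 2.70% of its length with mt-Nd5 on the other strand, so the 2 may share reads. mt-Cytb, of complex III, stood at 3797 and 3558 CPM in mock and guided T cells and at 3545 and 5893 CPM in mock and guided B cells, a change of -0.83 (-0.85 to -0.81). mt-Co1, the most abundant of the set and the core of cytochrome c oxidase, went from 11360 to 16310 CPM in B cells beside 12170 and 11340 CPM in T cells, a change of -0.62 (-0.63 to -0.61). mt-Nd1 and mt-Nd2, which were higher in B cells already, changed by -0.73 and -0.77. mt-Co3 moved least, by -0.27 (-0.48 to -0.06).

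The guided B library also carried the largest share of reads from mitochondrially encoded genes, 3.79%, against 2.38% to 2.85% in the other 4 libraries. The median effect in B cells was 0.72 for sgRNA-P1 and 0.20 for sgRNA-P2, and with sgRNA-P2 in place of sgRNA-P1 the median change was -0.28 and that of mt-Nd2 was 0.04. Whether RNA quality or the state of the cells had a part in this was not tested.

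On the nuclear side, complex I was described with the cytochrome complexes and ATP synthase. Of the 34 measured complex I genes, 32 shifted toward T cells and 6 did so by 1.5-fold or more, beside 46.7% and 0.508% of all genes. Their median change was 0.24. At 1.5-fold, 1 was higher in mock T cells and 11 in guided T cells, beside 13.6% and 15.0% of all genes. With sgRNA-P2 in B cells the 11 became 3 and the median change became 0.12. Ndufa2, an accessory subunit, stood at 32.7 and 35.7 CPM in mock and guided T cells and at 28.8 and 19.8 CPM in mock and guided B cells, a change of 0.67 (0.44 to 0.89). Cytochrome c oxidase and bc1 complex genes shifted toward T cells in 17 of 19 cases, none by 1.5-fold, with a median change of 0.22. Cox5a was an exception at -0.27 (-0.52 to -0.03), and Cox7a2 had 0.55 (0.31 to 0.78). ATP synthase genes shifted in 15 of 17 cases with a median change of 0.19. Atp5f1e, the epsilon subunit, stood at 55.4, 63.2, 54.4 and 38.0 CPM in mock T, guided T, mock B and guided B cells, a change of 0.71 (0.54 to 0.87). Tomm7, of the mitochondrial import pore, widened from a log2 ratio of 0.45 to 1.09.

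With the trend on GC content and exon length removed, median changes were 0.17 for the nuclear oxidative phosphorylation list and -0.67 for the mitochondrially encoded mRNAs. Short mRNAs had the larger changes within complex I, with a Spearman correlation of -0.55 between change and exon length over 34 genes.

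**Figure D4:**
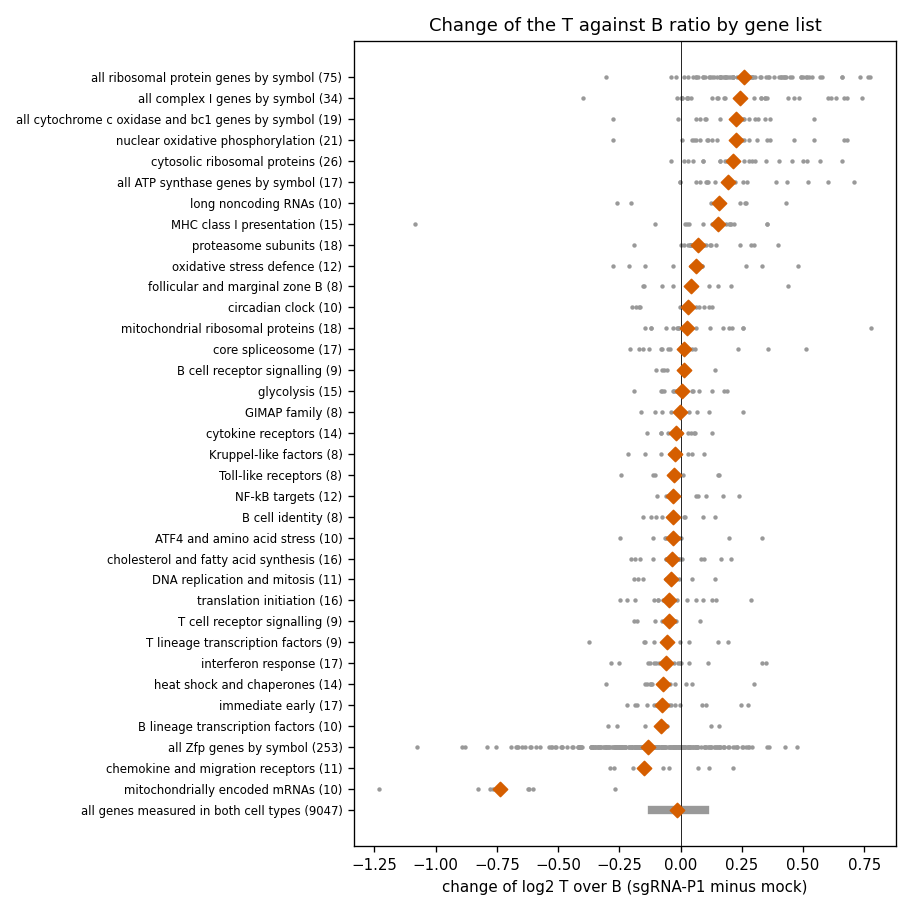
Change of the log2 ratio of T over B by gene list, for lists with at least 8 members measured in both cell types, with 1 grey point per member and the median as an orange diamond. The bar at the bottom spans the quartiles of all 9047 genes, -0.12 to 0.10, and the ribosomal, oxidative phosphorylation and mitochondrially encoded lists are among those with medians outside it.

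Zinc finger genes with the Zfp symbol, most of which encode DNA-binding repressors of the KRAB type, moved toward B cells. Of 253 measured, 183 had a change below 0, beside 53.3% of all genes, and the median was -0.13. Within the group the change had a Spearman correlation of 0.54 with GC content over 247 genes, given as a description. By 1.5-fold or more, 14 shifted toward B cells and 0 toward T cells, beside 0.608% and 0.508% of all genes. Among the 253, 4 widened and 2 narrowed, beside 32 and 5 of all 9047 genes. How many of the 253 stood 1.5-fold apart on average was not counted. Zfp944 stood at 25.9, 23.1, 37.3 and 53.3 CPM in mock T, guided T, mock B and guided B cells, a change of -0.67 (-0.88 to -0.46). Zfp677, by contrast higher in T cells, narrowed from 45.7 against 23.7 CPM in the mock pair to 40.0 against 32.8 CPM in the guided pair, a change of -0.66. Zfp54 also narrowed, by -1.08 (-1.57 to -0.59), as its level went from 3.75 to 7.53 CPM in B cells. Many members form clusters of similar genes, so reads may be shared among them. The median change was -0.08 with the trend on GC content and length removed and -0.03 with sgRNA-P2 in B cells.

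Of 15 MHC class I presentation genes 13 shifted toward T cells, beside 46.7% of all genes, with a median change of 0.15. In the other direction 1 passed 1.5-fold, beside 0.608% of all genes. Counting intervals left out 0 for 12 of the 15, beside 2545 of all 9047 genes. They are narrower for abundant genes and cover counting error only. With sgRNA-P2 in B cells the median was 0.04, with 9 of the 15 above 0. The immunoproteasome subunits Psmb8 and Psmb9 each changed by 0.35, with Psmb8 at 138 and 143 CPM in T cells and at 113 and 91.2 CPM in B cells. H2-K1, a classical class I heavy chain, changed by 0.21 (0.18 to 0.23) and B2m, the light chain, by -0.10 (-0.13 to -0.07). H2-Q10, a secreted class I protein, was the gene that narrowed most, from 27.3 against 9.05 CPM in mock cells to 7.91 against 5.58 CPM with the guide, a change of -1.09 (-1.50 to -0.67). The mock T library was the one that stood above the others, and near-identical class I genes make the value uncertain. MHC class II genes stayed higher in B cells, with 6 measured in both cell types and a median change of 0.04.

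Single genes with known functions in lymphocytes or signalling also passed the rule. Hcst, which encodes the adaptor DAP10, stood at 55.02 and 64.5 CPM in mock and guided T cells and at 8.57 and 6.31 CPM in mock and guided B cells, a change of 0.67 (0.33 to 1.02). Tbxa2r, the thromboxane receptor, had 32.0 and 32.3 CPM in T cells and 7.89 and 5.02 CPM in B cells, a change of 0.66 (0.28 to 1.05). Setbp1, a nuclear protein gene higher in B cells, had 6.78 and 4.88 CPM in T cells and 79.4 and 97.8 CPM in B cells, a change of -0.77 (-1.12 to -0.42). Arhgap5, a GTPase-activating protein gene higher in T cells, narrowed as it went from 12.6 to 19.4 CPM in B cells while T cells had 49.4 and 48.6 CPM, a change of -0.65 (-0.90 to -0.39).

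**Figure D5:**
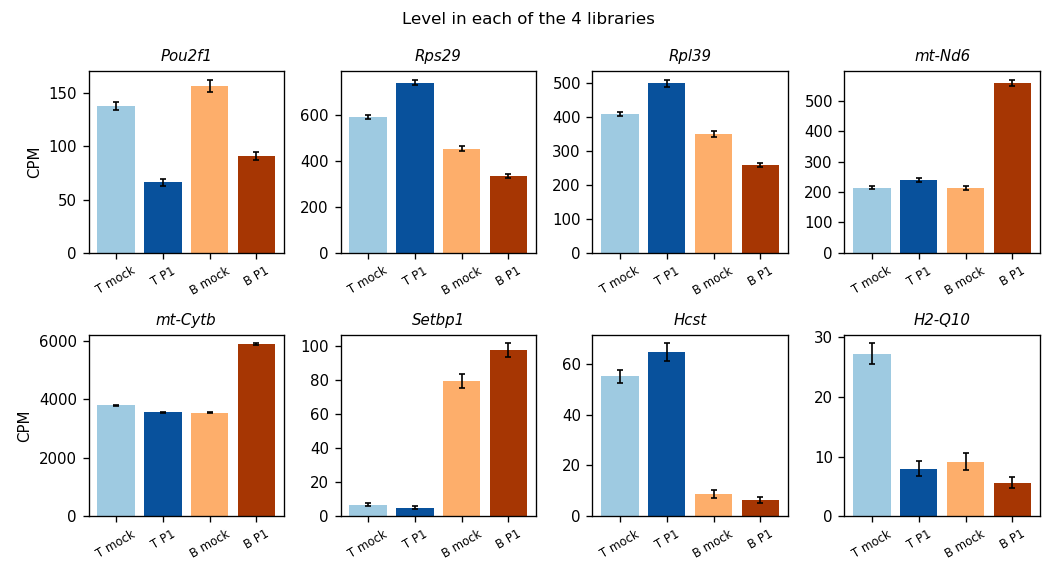
Level in CPM of 8 genes in the mock (pale) and sgRNA-P1 (dark) libraries of T cells (blue) and B cells (orange), 1 library per bar, with exact Poisson 95% intervals as error bars. Rps29 and Rpl39 are highest in guided T cells and lowest in guided B cells, and mt-Nd6 and mt-Cytb are high in guided B cells alone.

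Receptor signalling and lineage regulators kept their ratios to within 1.5-fold, as did all but 1.12% of the genes measured in both cell types. Of 9 T cell receptor signalling genes measured in both cell types, 8 had a change below 0, beside 53.3% of all genes, with a median of -0.05, or -0.0053 by total reads. The lowest was Rasgrp1 at -0.19 (-0.25 to -0.13). Of 9 B cell receptor signalling genes, 5 were above 0 and the median was 0.01, or -0.04 with sgRNA-P2 in B cells. Lineage transcription factors had medians of -0.06 over 9 T cell and -0.08 over 10 B cell factors. Bcl6, the regulator of germinal centre B cells, changed by -0.30 (-0.47 to -0.12), from 28.1 against 101 CPM in mock cells to 26.2 against 117 CPM with the guide.

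No receptor for migration passed the size rule for its change, which 1.12% of all genes passed. Of 11 measured in both cell types, 8 were below 0, beside 53.3% of all genes, with a median change of -0.15. That median lay just below the lower quartile of all genes, -0.12. It was -0.09 with sgRNA-P2 in B cells, -0.09 with the trend on GC content and length removed and -0.11 by total reads. The quartiles given for all genes are those of the main setting and do not serve these other settings. By total reads the median over all genes was 0.03, against -0.01 in the main setting. Itga4, an integrin chain, was 695 and 687 CPM in mock and guided T cells and 551 and 659 CPM in mock and guided B cells, a change of -0.27 (-0.32 to -0.23). Cxcr4, the receptor for CXCL12, changed by -0.19 (-0.27 to -0.12) and S1pr1, needed to leave lymphoid organs, by -0.15 (-0.20 to -0.09), while S1pr4 had 0.21 (0.10 to 0.33). Interferon response genes had a median change of -0.06 over 17 and immediate early genes one of -0.07 over 17. Those medians lie within the quartiles of all genes.

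Long noncoding RNAs moved toward T cells in 8 of 10 cases, beside 46.7% of all genes, with a median change of 0.16. None passed 1.5-fold, beside 1.12% of all genes. Snhg8, a host of small nucleolar RNAs, stood at 53.6, 56.7, 43.8 and 34.4 CPM in mock T, guided T, mock B and guided B cells, a change of 0.43 (0.25 to 0.61). Malat1, a nuclear RNA, was higher with the guide in both cell types, from 2165 to 2911 CPM in T cells and from 2363 to 2859 CPM in B cells, so its ratio changed by only 0.15 (0.13 to 0.18).

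The 3 genes past 1.5-fold in opposite directions in the mock and guided pairs were all predicted genes or pseudogenes. Gm4202 stood at 24.7, 49.9, 51.8 and 28.3 CPM in mock T, guided T, mock B and guided B cells. Gm6560 stood at 39.5 and 6.14 CPM in mock and guided T cells and at 19.8 and 11.8 CPM in mock and guided B cells. Hspd1-ps3, a pseudogene of a mitochondrial chaperone, had 2.83 and 8.09 CPM in T cells and 11.8 and 4.25 CPM in B cells. In Gm4202 and Hspd1-ps3 the guided T and mock B libraries were the high ones. Against B cells with sgRNA-P2, at 75.4 CPM for Gm4202 and 14.2 CPM for Hspd1-ps3, both kept the direction of the mock pair, with log2 ratios of -0.60 and -0.81, and Gm6560 changed direction there too, at -1.77. Such loci can draw reads from their parent genes, and their values are uncertain.

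Few genes measured in 1 cell type only passed 1.5-fold there, and few of those measured in both did. Of 581 genes at 5 CPM in T cells alone, 80.7% differed by less than 1.1-fold between guided and mock T cells and 1 passed 1.5-fold. Of 590 at 5 CPM in B cells alone, 56.6% differed by less than 1.1-fold and 4 passed 1.5-fold. Among the 9047 genes measured in both cell types, 9 passed 1.5-fold in T cells and 41 in B cells. The one in T cells was Srp54b, a signal recognition particle gene with near-identical copies, at 1.62 CPM in mock and 15.4 CPM in guided T cells. It was also higher in guided B cells, 5.29 against 1.42 CPM.

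Octamers were counted near the starts of genes, with no test. The motif ATGCAAAT was found on either strand in 1.74% of 32851 RefSeq windows of 300 bases. It was present for 39 of 1313 genes with a window that were higher in guided B cells (2.97%), for 20 of 1399 higher in guided T cells (1.43%) and for 1.54% of the genes at 5 CPM. Of the identity genes with a window, 1 of 13 for B cells and 0 of 11 for T cells held it. On a list of octamer site genes 0 of 7 did, so the examples are not typical of B cell genes. Examples from B cell genes are printed with the motif in capitals, and with Sec61g, the only changed gene that held it. Genes higher in T cells that held it are not printed.
Blnk: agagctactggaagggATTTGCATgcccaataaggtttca
Vpreb3: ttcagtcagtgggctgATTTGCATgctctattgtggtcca
Tlr9: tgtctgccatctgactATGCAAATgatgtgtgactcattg
Sec61g: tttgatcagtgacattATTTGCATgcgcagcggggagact
On GRCm38.p6 these lie at chr19:40994328-40994367 (minus), chr10:75948239-75948278 (plus), chr9:106222510-106222549 (plus) and chr11:16508460-16508499 (minus). Blnk, the adaptor below the B cell receptor, had 314 and 315 CPM in mock and guided B cells, Vpreb3 had 49.9 and 42.4 CPM and Tlr9, a sensor of DNA, had 111 and 114 CPM. Each was under 1 CPM in both T cell libraries.

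Of the 101 genes whose ratio changed by 1.5-fold, 48 had a window and 1 of these, Sec61g, held the octamer. Sec61g, a subunit of the protein translocation pore, stood at 22.4 and 26.3 CPM in mock and guided T cells and at 24.6 and 17.0 CPM in mock and guided B cells, a change of 0.77 (0.52 to 1.02). Over 105 genes with the octamer and measured in both cell types the median change was -0.02, and over 6979 genes with windows but without it -0.01. A match is a run of letters in this window and says nothing of binding.

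Depth ranged from 33842813 reads (mock B cells) to 71858511 (mock T cells), and 3 reads come to between 0.0416 and 0.0887 CPM. All 21 T cell identity genes summed to 232 and 237 CPM in mock and guided B cells beside 11188 and 10930 CPM in T cells. Cd2 alone held 174.5 and 179.6 CPM of the B cell sums. The 19 members kept by a 1% limit on their level in the other cell type summed to 11.3 and 11.7 CPM in mock and guided B cells. In T cells these 19 summed to 10033 and 9811 CPM. All 21 B cell identity genes summed to 760 and 732 CPM in mock and guided T cells beside 28351 and 28954 CPM in B cells. Of the T cell sums, Ighm held 341 and 323 CPM and Cd37 held 271 and 268 CPM. The 16 members kept by the same limit summed to 32.0 and 30.9 CPM in mock and guided T cells beside 19353 and 19962 CPM in B cells. The limit was set on these same libraries, so the low sums follow in part from it. Among other cells, natural killer markers summed to 203 CPM in either T cell library and to 7.98 and 8.67 CPM in the B cell libraries, myeloid markers to 11.8 to 13.0 CPM in T and 66.9 to 69.9 CPM in B cells, and dendritic markers to 89.6 to 89.8 and 27.3 to 32.6 CPM. Erythroid and platelet markers summed to 3.69 to 7.31 CPM, and stromal and endothelial ones to 231 to 349 CPM. Single genes held much of these sums. Pecam1 alone was at 229 to 346 CPM, with every other stromal or endothelial marker under 3 CPM. In mock and guided T cells Nkg7 was at 63.0 and 65.7 CPM but Ncr1 at 0.22 and 0.20 CPM, and Ccr9 was at 44.9 and 42.7 CPM. In mock and guided B cells Mpeg1 was at 48.2 and 48.9 CPM. Whether such reads came from other cells or from the T and B cells was not tested. In bulk samples fewer cells of a type and less RNA per cell cannot be told apart.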

How the data were processed

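The deposited values are raw counts of reads for 56893 genes, in 1 table with a featureCounts layout. HISAT2, featureCounts, hg38 and mm39 are named, per the submitters' processing notes, without versions; the strand setting is not given in the sources used here, nor is the handling of multi-mapped reads. Groups follow the labels. The 2 columns of each group matched 1 count divided in a fixed proportion in 100% of genes to within 1 read (mean chi-square per gene 0.00231 to 0.00283) and were summed, so no p-value is given for a single comparison. Whether libraries came from separate animals is not stated.

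Counts were scaled by TMM (edgeR 4.0.16, R 4.3.3) over 5 libraries, and log2 ratios were taken after adding 1 read, at a mean of 5 CPM. The size rule was 1.5-fold. Reads were divided by 2, as counts per pair, for exact conditional, Poisson and log-scale 95% counting intervals, which cover counting error only. The models were checked on simulated counts that held counting error only, so that check does not cover variation between libraries. A trend on GC content (GENCODE transcripts, GRCm38) and exon length was fitted with mgcv 1.9.3. Other settings were another scaling, prior, threshold, minimum level, single columns, sgRNA-P2 and DESeq2 1.42.0. Coordinates of sequences are RefSeq's, on GRCm38.p6.

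Members and gene lists were chosen with earlier results of these data known. The rule for named genes took the octamer proteins, the 5 most abundant members of each identity list, the 10 genes that widened or narrowed most by the interval bound nearest 0, the 8 largest ratios in each direction, up to 4 members of each list described, and genes apart in opposite directions. A gene taken by this rule is left out of the text. Genes named outside it, chosen after their values were seen, are mt-Co1, mt-Co3, Rpl37a, Sec61g, Tomm7, Hcst, Tbxa2r, H2-K1, B2m, S1pr1, Malat1, Cox5a, Srp54b, the ribosomal protein genes that changed least or the other way, and the octamer examples.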

Additional observations from a re-analysis of the deposited data

Results flagged for a closer look

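Rps29 was the one gene whose cell type difference itself differed between mock and guided cells by a test, with a DESeq2 Wald adjusted p of 0.00117 for the interaction of cell type and guide over 5 libraries. Its change was 0.77 on the log2 scale with sgRNA-P1 in B cells and 0.68 with sgRNA-P2. The test takes both guides as repeats and has 1 residual degree of freedom. With edgeR's quasi-likelihood test the adjusted p of Rps29 was 0.1 and 0 genes passed an FDR of 0.05, while 323 had an unadjusted p under 0.05; DESeq2 called 1 gene and had 90 at that unadjusted level.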

How the results depend on the processing

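No paired analysis was possible because the 2 columns of a group are 1 divided library. With a mean of 20 CPM required, 1164 genes were higher in guided T and 1147 in guided B cells, 12 widened, 1 narrowed, 14 shifted toward T and 19 toward B, and the oxidative phosphorylation median was 0.15. At 1 CPM these counts were 2917, 2860, 160, 71, 275 and 256. With sgRNA-P2 in B cells, 12 widened, 3 narrowed, 29 shifted toward T and 21 toward B, and medians were -0.28 (mitochondrially encoded), 0.10 (oxidative phosphorylation) and 0.16 (ribosomal); mt-Nd2 reversed to 0.043. With the GC and length trend removed, 12 widened, 3 narrowed and 19 shifted toward T, with medians of -0.67 and 0.20 for the mitochondrially encoded and ribosomal groups. At 2-fold, 1127 genes were higher in T and 1144 in B cells, 1 widened and 2 narrowed, and at a change of 0.32 (log2) 149 widened and 52 narrowed. With the mock direction alone, 12 widened and 15 narrowed. By total reads the mitochondrially encoded and ribosomal medians were -0.70 and 0.30. Single columns, with TMM factors recomputed, gave ribosomal medians of 0.23 to 0.24. DESeq2 called 1 interaction. Fewer genes tested is the construction of the 20 CPM setting; for the others the cause was not tested. The other 63 values of the main results stayed within the limits set, 1.5-fold for counts and counting error for list medians. Those limits are wide: they passed 44 ribosomal genes becoming 30 with sgRNA-P2, and 46 genes toward T becoming 67 by total reads. The 63 also include counts from single columns, whose closeness follows from the division of 1 count table. Of the values under other settings, 284 for medians of the remaining gene lists and 256 for named genes stayed within counting error, while 22 and 49 moved beyond it. ATP synthase genes had no GC values under their newer symbols, so that check is void for them. Depth limits genes near 5 CPM most.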
